A study of Mus musculus with 3 samples.

Results

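The AP-1 genes encode leucine-zipper transcription factors that bind DNA as dimers. The 10 genes described here are Fos, Fosb, Fosl1 and Fosl2 of the Fos family, Jun, Junb and Jund of the Jun family, and the related genes Atf3, Batf3 and Maff. They were looked up by gene name in 2 annotated peak lists of mouse beige adipocytes. One list maps the forkhead factor Foxp4 and the other maps H3K27ac, acetylation of histone H3 at lysine 27, a mark of active promoters and enhancers. Of 16937 Foxp4 peaks 15 were assigned to an AP-1 gene, and of 17564 H3K27ac peaks 37 were. The 10 members stand among 21031 protein-coding genes.

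A Jun protein pairs with itself, with another Jun or with a Fos protein. Fos proteins need a Jun partner. The dimers recognise the palindrome TGACTCA and, with Atf partners, the cAMP response element TGACGTCA. Several of these genes are immediate early genes, transcribed within minutes of serum, growth factors, cAMP or stress, and their products act on the promoters of their own family. In cultured preadipocytes they are known for a brief early response to the differentiation cocktail.

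The cells came from the stromal-vascular fraction of inguinal fat of C57BL/6 mice, and the same culture and treatment is given for the Foxp4 ChIP, the H3K27ac ChIP and the input library. Growth for 3 days in medium with 20% serum went on until the cells were confluent. For the following 48 h they had 10% serum with insulin at 5 µg/ml, isobutylmethylxanthine at 0.5 mM, dexamethasone at 1 µM, T3 at 50 nM and troglitazone at 5 µM, and insulin, T3 and troglitazone were continued for 6 days. Isobutylmethylxanthine raises cAMP, and it was no longer listed for the last period. Each list comes from 1 library, so no value has a replicate and no comparison between conditions can be made. The input library was not used here. The labels describe an antibody against Foxp4 for every library and name none for H3K27ac. The agent label of the H3K27ac library does name that mark. Depth is unknown from peak lists, and scores were therefore ranked only within a list. A percentile below is the rank of a peak's score among all peaks of its own list, with tied scores at their middle rank. In a mixed culture, a mark in fewer cells and less of it in each cell cannot be told apart.

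Most marker genes of fat cells had an acetylated promoter, and no marker gene of thermogenic cells did. A promoter peak is one centred within 1000 bp of a transcription start site (TSS). An H3K27ac promoter peak was present at 6 of 8 adipocyte markers, 0 of 7 thermogenic markers, 2 of 6 preadipocyte markers and 1 of 6 macrophage markers. None was found at 4 endothelial or at 4 skeletal muscle markers, and 26.0% of all protein-coding genes had one. Counting any assigned H3K27ac peak, 7 of 8 adipocyte markers had one, with Adipoq as the exception. So did 3 of 7 thermogenic markers (Ppargc1a with 4, Elovl3 and Cox8b with 1 each). The other lists had 5 of 6 preadipocyte, 2 of 6 macrophage, 3 of 4 endothelial and 0 of 4 skeletal muscle markers. The share of all protein-coding genes was 37.5%. By this wider count, adipocyte markers were not set apart from preadipocyte or endothelial markers. Ucp1, the uncoupling protein that defines beige fat, had no peak in either list.

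Most AP-1 genes had an assigned H3K27ac peak, and most had an assigned Foxp4 peak. Of the 10 members, 4 (Junb, Jund, Atf3 and Batf3) had a Foxp4 peak centred within 3000 bp of the TSS, against 10.4% of protein-coding genes. Fosl2 and Jun held most of the distal Foxp4 peaks. At least 1 Foxp4 peak was assigned to 7 of the 10 members, against 36.6% of protein-coding genes, and at least 1 H3K27ac peak to 9 members, against 37.5% of genes. Foxp4 promoter peaks were present at 2 members, Jund and Atf3, against 6.77% of genes. H3K27ac promoter peaks were present at 6 members, Fosl1, Jun, Junb, Jund, Atf3 and Maff, against 26.0% of genes. Foxp4 and H3K27ac peaks overlapped by 1 bp or more at 5 members, Fos, Fosl2, Jun, Junb and Jund, against 5.36% of genes. These counts are descriptions without a test, since the members were chosen and a gene with many peaks has more chances of an overlap. The overlaps were partial, and only at Jund did the centre of the Foxp4 peak lie inside an H3K27ac peak.

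**Figure D1:**
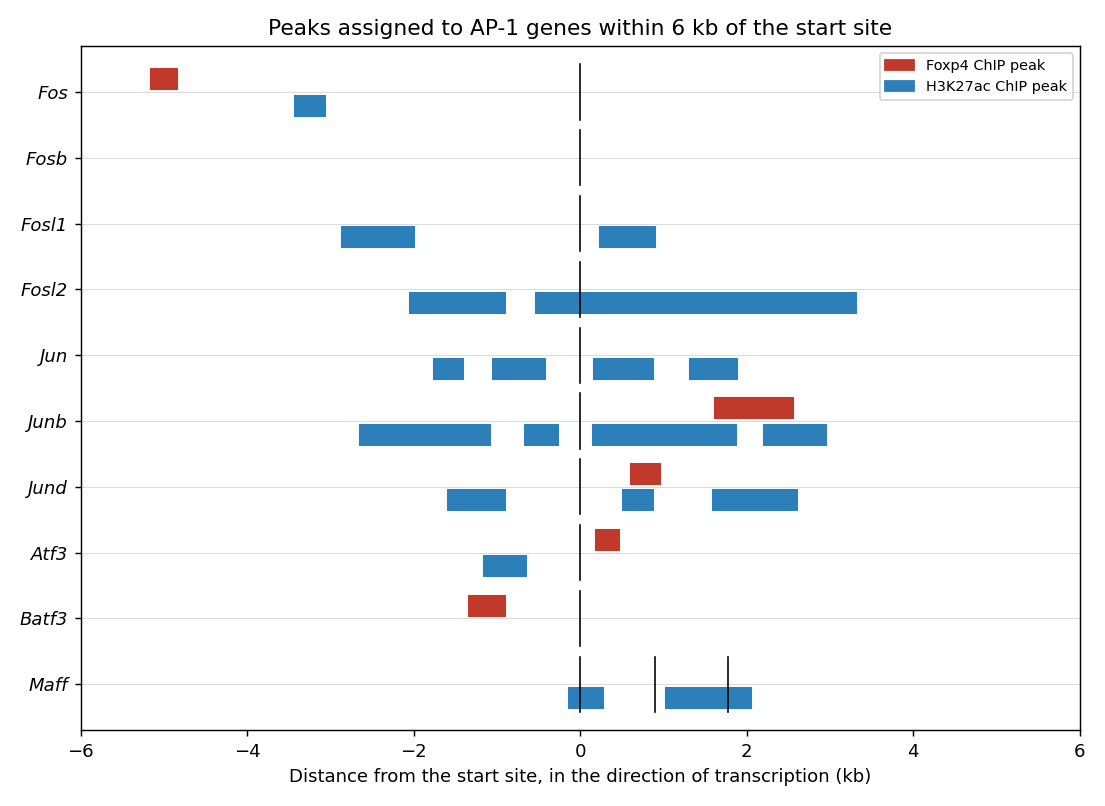
Peaks assigned to each of the 10 AP-1 genes, by distance from the annotated start site in kb along the direction of transcription. Foxp4 peaks are red and above each line, H3K27ac peaks blue and below it, and vertical black lines are start sites (3 at Maff, measured from the first). Jun, Junb and Jund have H3K27ac peaks on both sides of an uncovered start site, while Fos, Fosb and Batf3 have none within 3 kb.

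The Jun family had the most separate H3K27ac peaks around its start sites, although the covered length was greatest at Fosl2, described further on. Jun, Junb and Jund have 1 exon each, so promoter, coding sequence and gene end lie close together. Jun and Junb each had 4 H3K27ac peaks centred within 3000 bp of the TSS, a number reached by 0.157% of protein-coding genes, and Jund had 3, reached by 0.832%. At Jun, Junb, Jund and 1 of the starts of Maff the TSS itself lay in a gap with an H3K27ac peak within 1500 bp on either side. Of the 16854 genes with a start site in the tables used, 3.27% had such a start. This arrangement was described after the peaks were seen.

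Jun encodes c-Jun, the most studied Jun protein and a target of the stress kinases called JNKs. Jun (Entrez gene 16476) lies on the minus strand of chromosome 4, 95049036 to 95052222 in mm10. No Foxp4 peak was near it: the closest of its 3 Foxp4 peaks lay 87503 bp upstream. Its H3K27ac peaks upstream of the TSS had scores of 72 and 65, centred 737 and 1590 bp upstream, at percentiles 87.2 and 83.2. The peaks inside the gene scored lower, with 40 in the 5' UTR and 39 in the exon, centred 511 and 1594 bp downstream. Between the inner pair a stretch of 570 bp around the TSS held no peak. The promoter of Jun falls in that gap, and it holds a pair of sites known from work on the human gene, where Jun and Atf2 dimers act on them. The 250 bases before the TSS are printed for this reason, from the RefSeq promoter table of GRCm38.p6 (chr4:95052223-95052472, minus strand), with the letters TTACCTCA and TGACATCA in capitals.
Jun: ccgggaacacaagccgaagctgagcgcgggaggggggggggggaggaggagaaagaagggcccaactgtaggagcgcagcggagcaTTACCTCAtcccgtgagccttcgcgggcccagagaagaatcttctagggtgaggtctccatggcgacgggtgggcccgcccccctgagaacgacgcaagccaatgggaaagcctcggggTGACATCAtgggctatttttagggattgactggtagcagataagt
The first begins 164 bases before the TSS and the second 45 bases before it. Among 32851 promoter windows, 250 bases before to 50 after a start, 0.889% held TTACCTCA and 3.62% held TGACATCA on either strand. Both were looked for after the sequence was read.

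Junb encodes JunB, a weaker activator that can oppose c-Jun. Junb (Entrez gene 16477) lies on the minus strand of chromosome 8, 84976909 to 84978748. Its 4 H3K27ac peaks ran from 84975795 to 84981409 and covered 79.6% of that span of 5615 bp. They scored 73 at the gene end, 60 in the exon, 56 at 469 bp upstream and 39 at 1869 bp upstream. The exon peak was centred 1004 bp downstream of the TSS and so just missed the promoter window, and the gap around the TSS was 410 bp long. A Foxp4 peak of score 25 (percentile 23.2) lay across the gene end, 84976196 to 84977144, centred 2078 bp downstream of the TSS. It was 949 bp wide and shared 619 bp with H3K27ac, spread over the gene-end and the exon peak. So at Junb the low-scoring Foxp4 peak lay in the downstream part of the acetylated block and not at the promoter. The promoter of Junb was the only one among the members' windows with the forkhead letters TGTTTAC, which 3.65% of all windows hold. It is printed because no Foxp4 peak covered it (chr8:84978749-84978998, minus strand), with TGTTTAC and the response element core TGACG in capitals.
Junb: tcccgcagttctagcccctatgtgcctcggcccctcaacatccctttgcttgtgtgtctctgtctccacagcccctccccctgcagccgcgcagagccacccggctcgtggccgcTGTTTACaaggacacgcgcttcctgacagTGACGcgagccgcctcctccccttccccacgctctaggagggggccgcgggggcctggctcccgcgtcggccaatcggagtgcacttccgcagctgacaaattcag
The forkhead letters begin 135 bases before the TSS and TGACG begins 106 bases before it. The nearest edge of the Foxp4 peak lay 1604 bp downstream of the TSS.

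Jund encodes JunD, the Jun protein that is present most steadily in resting cells. Jund (Entrez gene 16478) lies on the plus strand of chromosome 8, 70697739 to 70700616. Of the 5 overlapping Foxp4 peaks, that of Jund had the largest part covered by H3K27ac. Its Foxp4 peak, 70698342 to 70698700 in the 5' UTR, was centred 782 bp downstream of the TSS and scored 38 (percentile 83.7). It shared 277 bp, 77.2% of its length, with an H3K27ac peak of score 27 (percentile 11.3) at 70698239 to 70698618. The acetylation there was the weakest at the gene. The H3K27ac peak further into the exon, 70699317 to 70700348, scored 92 (percentile 94.3), the highest of all 37, and started 616 bp beyond the Foxp4 peak. The remaining H3K27ac peak, of score 36, lay 1253 bp upstream. Around the annotated TSS of Jund 1404 bp were free of H3K27ac. Its promoter window was poor in G and C, at 46.7%, against a median of 52.7% over all windows, and had the lowest ratio of observed to expected CpG among the members, 0.18 against a median of 0.38.

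By assigned peaks, acetylation in the Fos family was concentrated at Fosl2, while Fos and Fosb had none at their promoters. Counted within 50 kb of the TSS whatever the assigned gene, the order differed. Fosl1 then had 9 H3K27ac peaks, Fosb 5, Fosl2 4 and Fos 3. Fosl2 encodes Fra-2, a Fos protein without a strong activation domain that is expressed in fat cells. Fosl2 (Entrez gene 14284) lies on the plus strand of chromosome 5, 32136472 to 32157840. It had 13 H3K27ac peaks, a number reached by 0.162% of protein-coding genes, which is 34 genes, led by Zbtb16 with 29, Dapk1 with 20 and Tgfbr3 with 20. It also had 5 Foxp4 peaks, a number reached by 1.76% of genes. Its TSS was covered by an H3K27ac peak of 3862 bp, 32135929 to 32139790, wider than most of the list (width percentile 99.8) and of score 57. This peak was centred 1387 bp downstream of the TSS in intron 1 and therefore did not count as a promoter peak. Another of score 61 lay in a CpG island 1480 bp upstream. Together the 2 peaks covered 93.2% of 5370 bp.

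The other 11 H3K27ac peaks of Fosl2 lay between 34256 and 152658 bp upstream. Of them 9 were inside introns of the neighbouring gene Babam2, and so were 4 of its 5 Foxp4 peaks. The highest-scoring of the 9, with 72 (percentile 87.2), was in the last intron of Babam2, 55035 bp upstream of Fosl2. Assignment to Fosl2 rests on the nearest TSS alone, and no contact with its promoter was measured. A Foxp4 peak of score 34 (percentile 71.8) at 32015436 to 32016083, in intron 10 of Babam2 and 120713 bp upstream, shared 253 bp with an H3K27ac peak of score 54. The other 4 Foxp4 peaks, of scores 21, 22, 27 and 27, touched no H3K27ac peak. The closest of them to the TSS lay 13685 bp upstream, with 11446 bp between it and the next acetylated peak. Foxp4 and H3K27ac peaks thus spread over the same upstream region and met once.

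Jun also had distal peaks, all of them annotated as intergenic. It had 8 H3K27ac peaks in all, a number reached by 0.789% of protein-coding genes. The 4 outside the promoter cluster lay 31129, 49225, 109684 and 251642 bp upstream, with scores of 21, 52, 34 and 30. Its Foxp4 peaks lay 87503, 159434 and 251421 bp upstream, with scores of 34, 41 and 34. The farthest one, 95303156 to 95304131, was 976 bp wide and contained the whole 343 bp of the farthest H3K27ac peak. The score of 41 (percentile 89.5) was the highest Foxp4 score of any member, and this peak had no H3K27ac peak within 49358 bp.

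**Figure D2:**
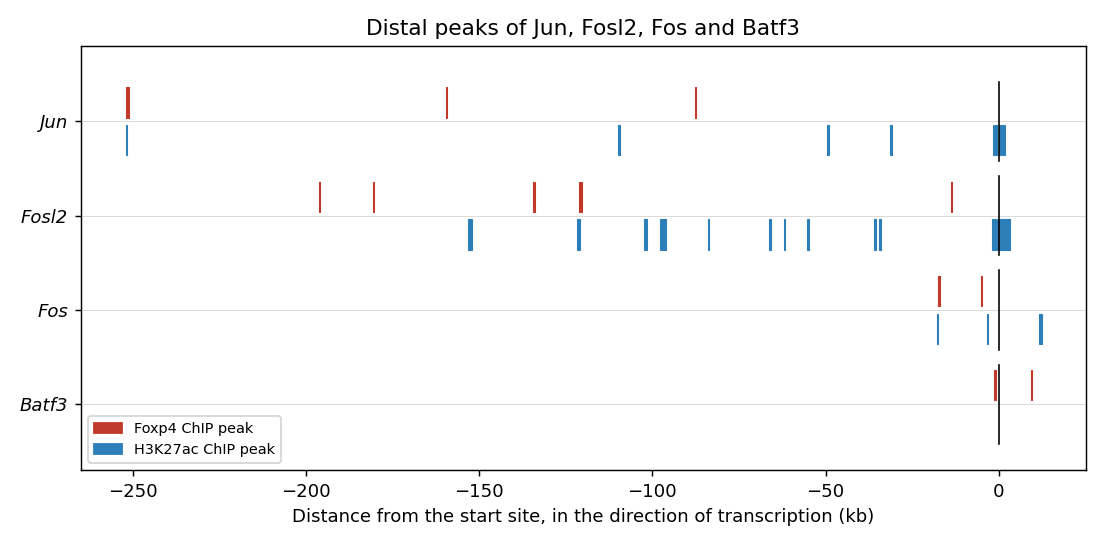
Peaks assigned to Jun, Fosl2, Fos and Batf3 by distance from the start site in kb along the direction of transcription. Foxp4 peaks are red and above each line, H3K27ac peaks blue and below it, black lines are start sites, and outlines make narrow peaks look slightly wider than scale. Both kinds of peak reach about as far upstream at Jun, where the last pair overlaps, while Batf3 has Foxp4 peaks alone.

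Fos encodes c-Fos, the classical immediate early partner of c-Jun. Fos (Entrez gene 14281) lies on the plus strand of chromosome 12, 85473890 to 85477274. No peak of either list was centred within 3000 bp of its TSS. The nearest H3K27ac peak, of score 34 in a SINE repeat, lay 3250 bp upstream, and the nearest Foxp4 peak, of score 26, lay 5004 bp upstream, with 1410 bp between them. Farther out, a Foxp4 peak of score 32 at 17321 bp upstream (85456332 to 85456806) shared 21 bp with an H3K27ac peak of score 46 at 85456009 to 85456352. That is 4.42% of the Foxp4 peak, so this overlap is an edge contact. The last H3K27ac peak, of score 28, lay 12074 bp downstream of the TSS. Peaks of both lists therefore sat side by side upstream of Fos at 2 places.

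The promoter of Fos is shown as that of an immediate early gene without an acetylation peak in these cells (chr12:85473640-85473889, plus strand). Capitals mark the TATA box TATAAA, which places the start of transcription, and TGACG, a core through which cAMP and calcium are known to act on Fos.
Fos: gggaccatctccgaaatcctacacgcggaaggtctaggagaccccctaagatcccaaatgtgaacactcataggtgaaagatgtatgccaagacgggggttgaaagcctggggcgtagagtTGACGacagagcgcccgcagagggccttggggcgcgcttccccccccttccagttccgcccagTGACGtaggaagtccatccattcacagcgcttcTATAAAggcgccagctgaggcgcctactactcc
The cores begin 129 and 66 bases before the TSS and the TATA box 33 bases before it. TATAAA was in 13.6% of all windows and in those of 2 members, Fos and Junb. In Junb these letters did not lie upstream of the TSS, unlike the TATA box of Fos. TGACG was in 20.8% of all windows and, on either strand, in those of 5 members, Atf3, Fos, Fosb, Junb and Maff. The members had 11 windows, 3 of them of Maff, so a count of members is not a share of windows. The Atf3 match and the matches at 1 start of Maff are parts of the longer sites TTACGTCA and TGACGTCA. The serum response element of Fos, known as a CArG box, lies farther upstream than this window, and no CArG box was in any member's window (1.63% of all windows).

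Fosb and Fosl1 had acetylation but no assigned Foxp4 peak. Fosb encodes FosB, whose short form persists after repeated stimulation in the brain. Fosb (Entrez gene 14282) is on chromosome 7, 19302696 to 19310118, and its sole H3K27ac peak, of score 39, lay 16954 bp upstream (19326828 to 19327170). Fosl1 encodes Fra-1, a Fos protein linked to growth and invasion. Fosl1 (Entrez gene 14283) is on chromosome 19, 5447698 to 5455938, and had an H3K27ac peak of score 28 (percentile 14.0) in a CpG island of intron 1, 562 bp downstream of the TSS. A second H3K27ac peak, of score 45, lay 2438 bp upstream. The nearest Foxp4 peak to these Fosl1 peaks was 35903 bp away.

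Atf3 and Batf3 are neighbours on chromosome 1, and their peaks differed. Atf3 encodes a stress-induced factor that often represses its targets. Batf3 encodes a small partner of Jun proteins known from dendritic cells and T cells. At Atf3 (Entrez gene 11910, 191170296 to 191183333, minus strand) both lists had a promoter peak, on opposite sides of the TSS. The Foxp4 peak, 191182864 to 191183158, scored 28 (percentile 55.2) and was centred 322 bp downstream in a CpG island of intron 1. The H3K27ac peak, 191183987 to 191184498, scored 45 (percentile 59.5) and was centred 909 bp upstream. Between them 828 bp carried neither, and that stretch contains the TSS and the promoter. At Batf3 (Entrez gene 381319, 191098414 to 191108943, plus strand) there were 2 Foxp4 peaks, both of score 34, and no H3K27ac peak. One lay 1122 bp upstream, a short way outside the promoter window, and the other 9439 bp downstream, in intron 2 and in a LINE repeat. The nearest H3K27ac peak to either was that of Atf3, 75931 bp or more away.

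The promoter of Atf3 is printed because it lies between its peaks (chr1:191183334-191183583, minus strand), with the ATF site TTACGTCA in capitals, through which the Atf3 protein is known to act on its own gene.
Atf3: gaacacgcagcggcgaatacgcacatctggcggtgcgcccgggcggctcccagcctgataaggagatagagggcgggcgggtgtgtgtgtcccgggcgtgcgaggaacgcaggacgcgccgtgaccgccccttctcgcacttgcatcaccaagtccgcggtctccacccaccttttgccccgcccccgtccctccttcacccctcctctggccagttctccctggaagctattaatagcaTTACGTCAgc
The site begins 10 bases before the annotated TSS. These letters, looked for after the sequence was read, were in 0.499% of all windows and in no other member's.

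Maff encodes MafF, a small Maf protein that lacks an activation domain and pairs with Nfe2-like factors or with itself. Maff (Entrez gene 17133) is on the plus strand of chromosome 15, 79346621 to 79359078, and has several starts. Of the members, Maff had the H3K27ac promoter peaks centred closest to a start. The first, 79346475 to 79346898, scored 29 and was centred 65 bp from a start, and the second, 79347636 to 79348672, scored 52 and was centred 93 bp from another. No Foxp4 peak was assigned to Maff. A start between the peaks, in a gap of 737 bp, has the full response element TGACGTCA, present in 1.79% of all windows and in no other member's. Its upstream sequence (chr15:79347270-79347519, plus strand) is printed with that element in capitals.
Maff: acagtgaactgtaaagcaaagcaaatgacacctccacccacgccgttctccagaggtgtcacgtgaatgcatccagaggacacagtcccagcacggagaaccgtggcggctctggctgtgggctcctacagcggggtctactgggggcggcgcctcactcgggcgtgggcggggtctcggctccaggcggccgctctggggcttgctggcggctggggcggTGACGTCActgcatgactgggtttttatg
The element begins 29 bases before that start. Another window of Maff held TGACATCA, 45 bases before its start, the same letters at the same distance as in Jun. The AP-1 palindrome TGACTCA itself was in no window of the 9 members in the table, against 5.20% of all windows. Fosl1 had no entry there. None of the 15 Foxp4 peaks reached into a printed or other member window, and no sequence of the peaks themselves was used.

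The Foxp4 peaks of AP-1 genes were spread by score from percentile 8.5 to percentile 89.5 of their list. Their scores ran from 21 to 41 with a median of 32, against a list median of 27. None had a percentile of 90 or more, where tied scores share their middle rank. Scores of H3K27ac peaks at the members ran from 21 to 92 with a median of 40, equal to the list median of 40, and 1 of 37 was in the top 10%. Of the 15 Foxp4 peaks 9 stood at the recurrent score values that hold 73.1% of the whole list (21, 27, 34, 41, 49 and 57). All Foxp4 peaks of Jun and Batf3 were among these 9. The 6 others were both peaks of Fos, the weak distal peak of Fosl2 with score 22, and the peaks of Junb, Jund and Atf3.

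**Figure D3:**
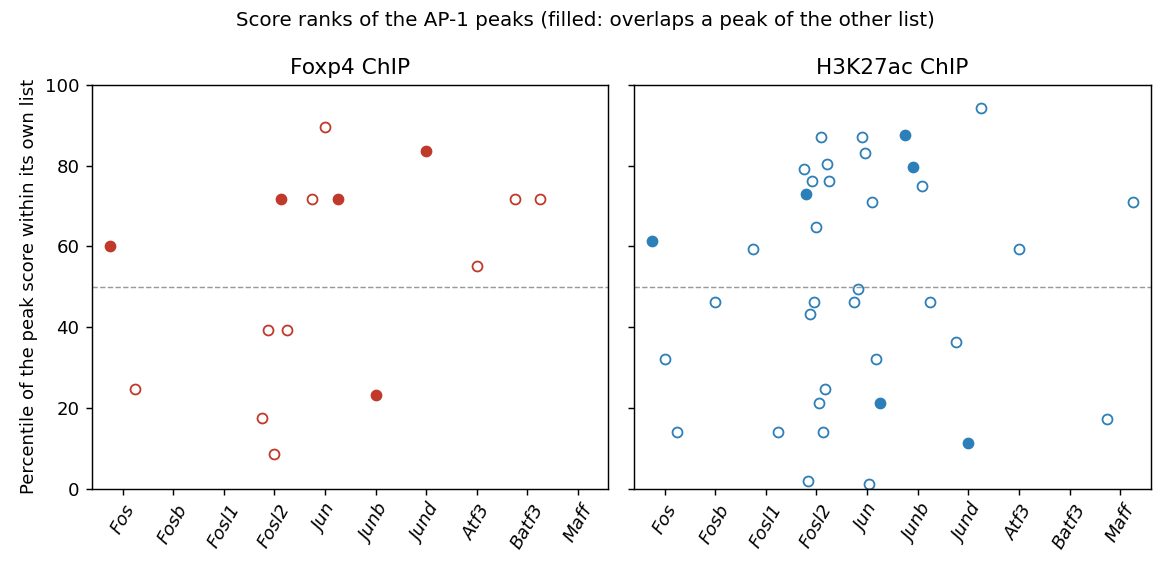
Percentile of each AP-1 peak's score within its own list (vertical axis) for Foxp4 on the left and H3K27ac on the right, by gene. Each circle is 1 peak, filled where it overlaps a peak of the other list, and the dashed line is the middle of the list. Foxp4 peaks stay at or below percentile 89.5, and the highest H3K27ac circle is that of Jund at percentile 94.3.

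Of the 15 Foxp4 peaks 5 overlapped H3K27ac (33.3%), against 8.21% of all Foxp4 peaks, and of the 37 H3K27ac peaks 6 overlapped Foxp4 (16.2%), against 7.91% of all. By position, promoter peaks made up 2 of 15 Foxp4 peaks (13.3%), against 9.48% of the list, and 8 of 37 H3K27ac peaks (21.6%), against 36.5% of the list. More than 10 kb from the TSS lay 9 of the Foxp4 peaks and 18 of the H3K27ac peaks, and upstream of it lay 11 and 26. Repeats were annotated at 2 Foxp4 and 6 H3K27ac peaks. For distance beyond 10 kb, upstream side and repeats, the shares over the whole lists were not counted. Those values therefore describe the members and cannot be read as traits of AP-1 genes. The member peaks share genes and neighbourhoods and are not independent of one another.

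How many peaks a gene receives depends on the space around it, so peaks centred within 50 kb of each TSS were counted whatever their assigned gene. This changed the order of the members. H3K27ac peaks numbered 10 around Junb, 9 around Fosl1 and Jund, 8 around Maff, 6 around Jun, 5 around Fosb, 4 around Fosl2, 3 around Fos, 2 around Atf3 and 0 around Batf3. The median of the 16854 genes with a start site was 1, and 0.914% of these genes had at least as many as Junb. Fosl2 kept 4 of its 13 assigned H3K27ac peaks within this distance and Jun 6 of its 8, and no peak of another gene was added at either. At Junb, Jund and Maff 6 and at Fosl1 7 of the peaks were assigned to neighbouring genes, such as Hook2 at Junb and Cfl1 at Fosl1. Foxp4 peaks within 50 kb numbered 3 around Jund, 2 around Fos, Fosl1, Batf3 and Maff, 1 around Fosb, Fosl2, Junb and Atf3, and 0 around Jun, against a median of 1. Both counts rest on single libraries, and neighbours that differ by 1 peak cannot be ordered.

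**Figure D4:**
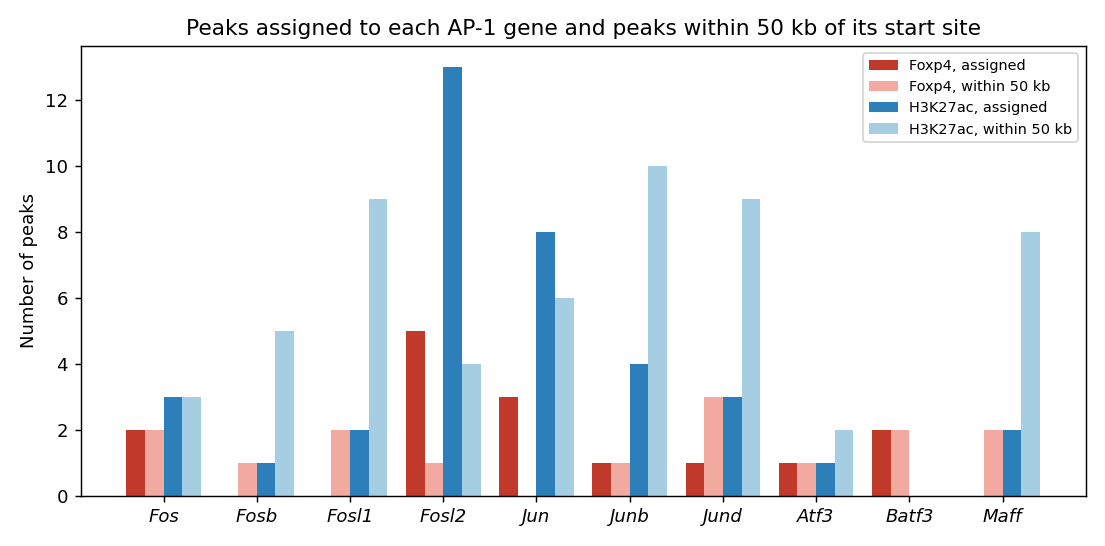
Number of peaks (vertical axis) for each AP-1 gene. Dark bars count peaks assigned by nearest start site and light bars peaks centred within 50 kb of a start site, red for Foxp4 and blue for H3K27ac. Fosl2 leads by assigned H3K27ac peaks with 13, while within 50 kb Junb has 10 and Fosl1 and Jund have 9 each.

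Other genes of the pathway were counted in 3 further lists, to be read beside the shares of all protein-coding genes: 36.6% with a Foxp4 peak, 37.5% with an H3K27ac peak, 6.77% with a Foxp4 promoter peak and 26.0% with an H3K27ac promoter peak. Among 24 other bZIP partners, which form mixed dimers with AP-1 proteins or share their sites, 14 had a Foxp4 peak, 18 an H3K27ac peak, 2 a Foxp4 promoter peak and 14 an H3K27ac promoter peak. Only Nfe2l2 and Atf5 in this list had a Foxp4 peak overlapping H3K27ac. Nfe2l2, the oxidative stress factor Nrf2, had 2 such peaks, the higher of score 56 at 1157 bp downstream of the TSS. Atf5 had 1 of score 33 at 2658 bp upstream. The highest Foxp4 score of the list was 78 at Creb3l1, 28950 bp upstream, followed by Nfe2l2 and by Nfe2l1 with 44 at 901 bp upstream. Small Maf genes Mafg and Mafk resembled Maff, each with 1 H3K27ac peak, at the promoter, and no Foxp4 peak.

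Of 24 kinases and phosphatases upstream of AP-1, 12 had a Foxp4 peak and 18 an H3K27ac peak, and 0 had a Foxp4 promoter peak and 14 an H3K27ac promoter peak. Dusp1, the phosphatase that switches off JNK and p38, was the only one with overlap. It had 8 H3K27ac peaks, as many as Jun, and its Foxp4 peak of score 52, 3468 bp upstream, overlapped at least 1 of them. The next Foxp4 scores were 49 at Mapk3, encoding the kinase Erk1, and 41 at the phosphatase genes Dusp5 and Dusp6, all of them recurrent values. Of 21 other immediate early genes and their factors, 13 had a Foxp4 peak and 14 an H3K27ac peak, and 3 had a Foxp4 promoter peak and 9 an H3K27ac promoter peak. The only overlap was at Ier5, with a Foxp4 score of 28 at 22784 bp upstream. Egr3 and Mrtfa had the highest Foxp4 scores of this list, 41 each, and Myc and Ccn2 followed with 34 each, again recurrent values. Overlap by 1 bp or more was thus found at 5 of 10 AP-1 genes, 2 of 24 partners, 1 of 24 upstream enzymes and 1 of 21 other early genes, against 5.36% of all genes. Among the marker lists it was found at 4 of 8 adipocyte and 3 of 6 preadipocyte markers, so a share of this size was not limited to AP-1 genes. Where the centre of the Foxp4 peak had to lie inside an H3K27ac peak, 1 AP-1 gene remained, against 3.85% of all genes. No test was made of these differences. Absence of a peak means that none was called at an unknown depth.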

How the data were processed

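ChIP-seq peak lists of 1 Foxp4 and 1 H3K27ac library were used. The submitters' processing notes name Bowtie2, Picard, SAMtools, MACS2, deepTools 3.3.0 and mm10 without settings. Per the file headers, each deposited list is a narrowPeak file annotated with HOMER annotatePeaks.pl. It gives the class, the nearest RefSeq TSS and the distance to it from the peak centre. The deposited score is the authors' whole-number value per peak, of at least 20, and its definition, the threshold and the use of the input are not stated in those sources.

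Autosomal, X and Y peaks were taken, with coordinates as deposited. Members were matched by gene name. Percentages of genes refer to 21031 protein-coding RefSeq genes of GRCm38.p6 with a curated transcript, the assembly of mm10. Those for peaks within 50 kb and for flanked start sites refer to the 16854 genes with a start site in the tables used. Start sites came from the RefSeq promoter table, and for Fosl1 from the deposited distances. Of 52 member distances 51 matched a table start within 1 bp. The exception is a start of Maff that the table does not list. Motifs were exact matches on both strands. A Foxp4 score counted as recurrent where 100 or more peaks had it and where it was over 3 times as frequent as the next lower and the next higher score.

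All 10 members are named with their peaks. From the 3 other lists, the rule names genes with overlap and the 3 with the highest-scoring Foxp4 peak (more where tied), and Mafg and Mafk were added after their values were seen. The members and lists were chosen with earlier results of these data known, so no test was made. Overlap and ranking functions were tested on simulated data. Computation used Python 3.11.15, numpy 2.4.6 and pandas 2.3.3. Alternatives changed the promoter window, the promoter class, the assignment, the overlap rule and the peaks used.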

Additional observations from a re-analysis of the deposited data

How the results depend on the processing

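Of 22 alternatives 13 left the count of members within 1.5 times its value and 9 moved it. The counts of members with a Foxp4 peak (7) or an H3K27ac peak (9) stayed within that range in every alternative run for them. Which members were counted changed. For Foxp4, the 50 kb rule dropped Jun and added Fosb, Fosl1 and Maff. Jun and Batf3 dropped out outside the recurrent scores, and Junb in the higher-scoring 50%. For H3K27ac, Fosb dropped out in the higher-scoring 50%. The share of all genes moved as well. For Foxp4 it was 36.6% by assignment, 57.5% within 50 kb, 23.2% in the higher-scoring 50% and 14.5% outside the recurrent scores. For H3K27ac it was 37.5%, 59.1% within 50 kb and 25.3% in the higher-scoring 50%. The shares within 50 kb are of the 16854 genes with a start site. The count with a Foxp4 promoter peak, 2 in the 1000 bp window, was 1 at 500 bp (4.57% of all genes), 4 at 3000 bp (Junb and Batf3 added, 10.4%) and 0 in the authors' promoter class (4.47%). The count with an H3K27ac promoter peak, 6, was 2 at 500 bp, Junb and Maff (19.3% of all genes). The count with overlap, 5, was 2 where 50% of the Foxp4 peak had to be covered (Junb and Jund, 3.84% of all genes), 1 where its centre had to lie inside (Jund, 3.85%), 2 in the higher-scoring 50% of each list (Fos and Fosl2, 2.85%), 3 outside the recurrent scores (Fos, Junb and Jund, 3.49%) and 1 for promoter peaks of both lists (Jund, 2.67%). The last rule and the 1000 bp window measured from peak edges were chosen after seeing the data. No paired analysis was possible because each group has 1 library. Counts this small, from libraries of unknown depth, cannot rank the members beyond what is listed.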
